A study of Mus musculus with 6 samples.

Results

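Thrombospondins are secreted glycoproteins of the extracellular matrix. Thrombospondin 1 is held in platelet granules and released at wounds, binds the cell surface receptors CD47 and CD36, and can switch on latent TGF-beta. CD47 also acts as a protective signal on blood cells: it engages SIRP alpha on macrophages, which then do not engulf the cell. The genes described here are the thrombospondin family (Thbs1, Thbs2, Thbs3, Thbs4 and Comp) and the receptors CD47, CD36, SIRP alpha, LRP1 and CD148. They were taken by gene symbol from the deposited table, where 9 of the 10 symbols were found among 52183 genes. The symbol Cd148 is not in the table. RefSeq lists that name as a synonym of Ptprj, so Ptprj is shown beside the members but lies outside the rule that chose them.

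The RNA came from haematopoietic stem cells, the bone marrow cells that renew all blood lineages, sorted by flow cytometry from female mice of 4 months. There were 3 libraries with the genotype label control and 3 with the label Thbs1 knockout. The labels give no strain, no treatment, and neither the allele nor the cells in which Thbs1 was deleted. They also do not say that the libraries of a group came from separate animals, so p-values here measure no more than library-to-library spread, perhaps a technical one. Values are FPKM, sequenced fragments per kilobase of exon, scaled to the mapped fragments of the library, which lets levels of different genes be compared. The FPKM steps of short genes gave 22730000 to 25880000 reads in the control libraries and 25740000 to 30890000 in those labelled knockout. A list of 24 markers used to define stem cells, Cd48 and Flt3 among them, which mark progenitors rather than stem cells, was tested in full, with summed levels of 1128 to 1279 FPKM in control and 1151 to 1276 FPKM in knockout-labelled libraries. Among them, Ly6a passed the test as lower in the libraries labelled knockout (115 and 76.9 FPKM), and 0 passed as higher. Cd48 ran from 6.11 to 10.8 FPKM and Flt3 from 6.09 to 9.73 FPKM over the 6 libraries. The defining T-cell genes Cd3d, Cd3e and Cd3g stayed at or below 0.17 FPKM, and the B-cell genes Pax5 and Ms4a1 at or below 0.02 FPKM. Summed marker levels in control and knockout-labelled libraries were 75.99 to 101.5 and 52.72 to 67.36 FPKM for T and NK cells, nearly all Nkg7, and 29.27 to 31.23 and 24.28 to 27.79 FPKM for B cells, nearly all Cd79b. Nkg7 itself fell from 88.6 ± 14.6 to 54.6 ± 5.86 FPKM (adjusted p = 0.0332 by limma, a linear model fitted over all tested genes), and was called in 2 of the 6 fits that left out a library. The sums were 73.92 to 101.2 and 70.21 to 77.69 FPKM for neutrophils, 1148 to 1306 and 1143 to 1197 FPKM for erythroid cells, nearly all Car2, and 111.1 to 129.2 and 112.2 to 133.1 FPKM for endothelium. Eng alone made 50.86 to 61.95 FPKM of the endothelial sum, and 7 of 14 endothelial markers stayed under 1 FPKM in every library. Of 10 tested erythroid markers the beta-globin gene Hbb-bt fell, from 14.8 ± 4.50 to 4.06 ± 0.462 FPKM (limma adjusted p = 0.00247, called in all 6 fits that left out a library), though reads may be split with its close copy Hbb-bs.

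Cd47 was the most abundant gene of the group by a wide margin, and the ligand it is best known to bind, Thbs1, varied more between control libraries than almost any other gene. Of the 3 members abundant enough for the main test, 0 passed it. Over the 6 libraries the mean level was 140.9 FPKM for Cd47, 11.9 FPKM for Sirpa, 7.88 FPKM for Thbs1 and 4.00 FPKM for Ptprj. Below these stood Cd36 at 0.653 FPKM, Comp at 0.345 FPKM, Thbs2 at 0.15 FPKM, Lrp1 at 0.135 FPKM, Thbs3 at 0.0417 FPKM and Thbs4 at 0.0217 FPKM. Neighbours in this order were clearly separated at 2 places. Cd47 lay 11.9-fold above Sirpa, and Ptprj 6.12-fold above Cd36, with no overlap of the 6 values in either case. Sirpa exceeded Thbs1 in 5 of 6 libraries and Thbs1 exceeded Ptprj in 5 of 6, and the ranges of all remaining neighbours overlapped. Set against 21843 protein-coding genes, Cd47 ranked between the percentiles 98.3 and 98.9 in every library, whereas Cd36 ranked between 47.3 and 51.4. Thus the stem cell samples held much transcript of the receptor CD47, moderate amounts of Sirpa, Thbs1 and Ptprj, and very little of the other thrombospondins or of Cd36 and Lrp1. These are bulk samples, in which fewer cells that carry a transcript and less of it per cell cannot be told apart.

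**Figure D1:**
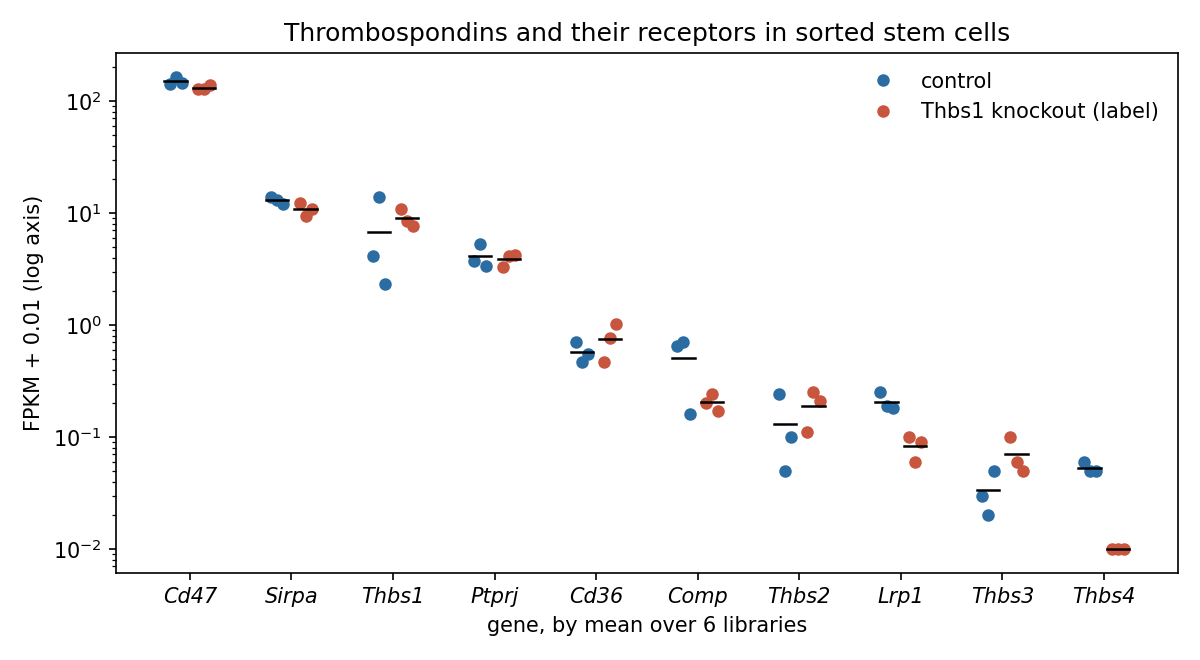
Level of each thrombospondin gene and receptor in the 6 libraries, as FPKM + 0.01 on a log axis, with control libraries in blue, those labelled knockout in red, and a bar at each group mean. Cd47 stands near 140.9 FPKM, 11.9-fold above Sirpa, and the points of Thbs1 in the control libraries spread from 2.33 to 13.8 FPKM.

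The stretches just upstream of the start site are shown for the most abundant receptor and for the pair of scarce ones, because they differ in the dinucleotide CG, which is dense in promoters of widely active genes. Each is the 250 bases before the RefSeq start (GRCm38.p6), written 5′ to 3′ on the gene's strand, with every CG in capitals. The windows are chr16:49855404-49855653 for Cd47, chr10:127621149-127621398 for Lrp1 and chr5:17835897-17836146 for Cd36. Those of Cd47 and Cd36 lie inside the longer gene models of GENCODE.
Cd47: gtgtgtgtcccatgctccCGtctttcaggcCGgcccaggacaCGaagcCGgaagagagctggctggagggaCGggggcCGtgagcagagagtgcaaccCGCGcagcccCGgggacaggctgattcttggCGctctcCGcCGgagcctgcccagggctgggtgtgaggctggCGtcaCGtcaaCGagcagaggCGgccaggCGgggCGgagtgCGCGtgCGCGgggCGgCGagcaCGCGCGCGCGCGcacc
Lrp1: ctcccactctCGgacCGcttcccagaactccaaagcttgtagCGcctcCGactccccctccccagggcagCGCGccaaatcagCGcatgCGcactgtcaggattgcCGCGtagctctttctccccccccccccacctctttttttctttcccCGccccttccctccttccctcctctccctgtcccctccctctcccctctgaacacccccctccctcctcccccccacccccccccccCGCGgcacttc
Cd36: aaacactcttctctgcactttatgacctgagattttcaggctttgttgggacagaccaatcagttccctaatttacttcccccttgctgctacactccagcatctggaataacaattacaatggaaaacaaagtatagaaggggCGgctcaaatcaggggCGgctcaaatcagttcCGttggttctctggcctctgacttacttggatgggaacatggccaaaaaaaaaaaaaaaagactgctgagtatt
These stretches hold 30 CG in Cd47, 13 in Lrp1 and 3 in Cd36. Over the window from 250 bases before to 50 after the start, the observed over expected CG ratio was 0.86 for Cd47, above 84.4% of the 32851 RefSeq windows, 0.59 for Lrp1 and 0.22 for Cd36, where the median of all windows is 0.38. The scarce Thbs4 had a ratio of 0.69, so a high ratio was not particular to the abundant gene. Searched on both strands, the GC box letters GGGCGG occurred 3 times in the window of Cd47, 2 times in that of Cd36 and 1 time in that of Lrp1, and 35.7% of all windows hold them. The letters CCAAT were found in the window of Cd36 but not in the other 2 (37.4% of all windows), and TATAAA and CACGTG in none of the 3 (13.6% and 7.2% of all windows). Windows were found for 7 of the 10 genes with Ptprj included, not for Thbs1, Comp or Sirpa.

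Thbs1 (ENSMUSG00000040152, chr2:118111876-118127133, plus strand, GRCm38, 6073 bases of exon) is the gene named in the genotype. Control libraries 1, 2 and 3 held 4.12, 13.8 and 2.33 FPKM, and the libraries labelled knockout held 10.8, 8.5 and 7.68 FPKM. The highest and both of the lowest values were therefore control libraries, and the knockout-labelled libraries lay between them. The mean was 6.76 ± 6.18 FPKM in control and 9.0 ± 1.63 FPKM in knockout-labelled libraries (SD, n = 3 each). The genotype label is thus not borne out by the level of Thbs1, and directions are stated by label only. Which exons were removed is not given in the labels, and an FPKM adds up all exons of a gene, so exons left in a deleted allele would still contribute. Whether they had a part in these values was not tested.

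Genes were compared with limma, a linear model with a spread moderated across genes, on log2(FPKM + 1), on which changes of scarce genes come out too small. A gene was tested if 3 or more of the 6 libraries held 1 FPKM or more of it, and was called at a Benjamini-Hochberg adjusted p below 0.05. Log2 changes are knockout-labelled minus control. The log2 change of Thbs1 was 0.65 ± 0.43 (SE), with a 95% interval from -0.33 to 1.63 and an adjusted p of 0.503. An exact two-sided permutation test of its FPKM gave p = 0.5, where 3 libraries against 3 cannot go below 0.1. Between 322 and 2030 reads lay behind each value. Without control library 2 the change was 1.26 and passed the threshold (limma adjusted p = 0.0343), so that 1 library decides whether Thbs1 counts as called.

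The spread of Thbs1 among control libraries was exceptional for these data. Its SD on the log2(FPKM + 1) scale was 1.11 in control, and just 47 of the 12555 tested genes had a larger one, against a median SD of 0.13 over all tested genes. Among the libraries labelled knockout its SD was 0.23. As a coefficient of variation of FPKM, the spread was 91.5% in control and 18.1% in knockout-labelled libraries. Cd47 and Sirpa varied far less, with coefficients of 8.63% and 7.75% in control. A long noncoding RNA gene on the opposite strand, Gm29233, shares 208 bases of exon with Thbs1, and the library kit does not mark strand. Gm29233 was listed at 0.15 FPKM in control library 2 and at 0 in the other 5 libraries. Platelets and their precursors are rich in thrombospondin 1. Of 21 platelet and megakaryocyte markers 2 stayed under 1 FPKM in every library, and the summed level was 1633, 1623 and 1409 FPKM in control libraries 1 to 3 and 1529, 1324 and 1314 FPKM in knockout-labelled libraries. Of the 18 tested, Selp fell (15.9 and 8.76 FPKM, called in 3 of the 6 fits that left out a library) and 0 rose. Among all tested genes, 1.56% were called. Pf4 was not called, at 314.9 ± 42.3 and 189.3 ± 48.4 FPKM (limma adjusted p = 0.0594), with all knockout-labelled values below all control values. Selp and Pf4 were the 2 tested markers of this list with an unadjusted limma p below 0.05. The part of such RNA in the level of Thbs1 was not tested.

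The genes whose profile over the 6 libraries was most like that of Thbs1 moved over a much narrower range. The 5 closest by Pearson correlation of log2(FPKM + 1) were Hdhd2 (r = 0.992), Tvp23b (0.985), Gdpd1 (0.981), Itpr2 (0.981) and Ogdh (0.98). Hdhd2 ran from 13.6 to 15.8 FPKM, again with control library 3 lowest and control library 2 highest. Of all tested genes, 96 reached an r of 0.9 with Thbs1. These correlations rest on 6 libraries that share their depth and preparation across genes, and are given as a description.

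Among the other thrombospondins, all 4 genes were below 1 FPKM in every library and did not enter the limma test. Thbs2 (ENSMUSG00000023885, chr17:14665500-14694235), the closest relative of Thbs1 in domain structure, reached 0.23, 0.04 and 0.09 FPKM in the control libraries, against 0.1, 0.24 and 0.2 FPKM in the knockout-labelled ones, each in replicate order. The groups overlapped (exact permutation p = 0.4), and 6 to 44 reads stood behind each value. Comp (ENSMUSG00000031849, chr8:70373558-70382066), the pentameric thrombospondin of cartilage, reached 0.64, 0.7 and 0.15 FPKM in control, against 0.19, 0.23 and 0.16 FPKM in knockout-labelled libraries. Control libraries 1 and 2 were high, while control library 3 was the lowest of all 6, so the groups overlapped (exact permutation p = 0.4).

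Thbs3 and Thbs4, which form pentamers like Comp, were at the limit of detection. Thbs3 (ENSMUSG00000028047, chr3:89215180-89226837) reached 0.02, 0.01 and 0.04 FPKM in control, against 0.09, 0.05 and 0.04 FPKM in knockout-labelled libraries, which corresponds to 1 to 13 reads (exact permutation p = 0.2). It shares 318 bases of exon with Mtx1 on the opposite strand, a gene at 10.5 to 11.9 FPKM, so that these few reads may belong to either gene. Thbs4 (ENSMUSG00000021702, chr13:92751590-92794818) reached 0.05, 0.04 and 0.04 FPKM in the control libraries, or 4, 3 and 3 reads, and was listed at 0 in all 3 libraries labelled knockout. With 10 reads against 0, a floor of 3 reads summed over the knockout-labelled group would make it 3.85-fold higher in control. That ratio takes the 10 control reads as exact, so it is no lower bound. The exact permutation p for Thbs4 was 0.1, the smallest this design allows. Reads copied by PCR are not independent molecules, and the floor covers the counting error of the 0 reads alone.

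**Figure D2:**
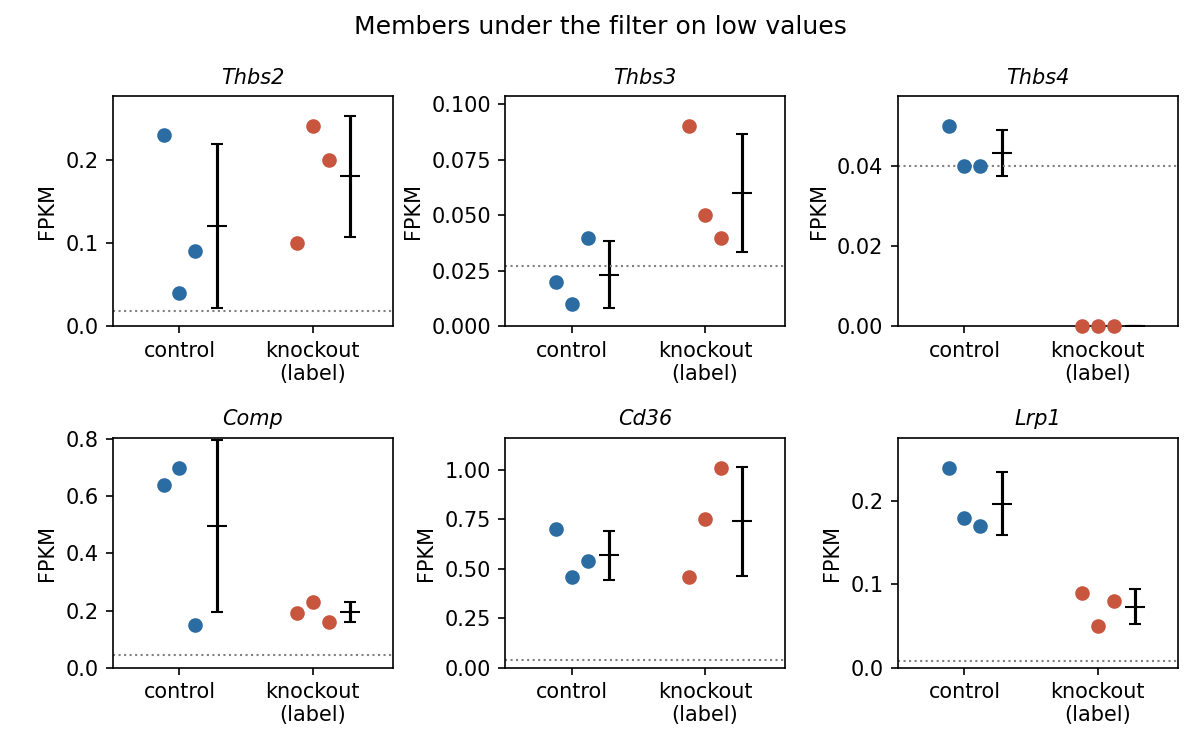
FPKM of the 6 members that stayed under the filter on low values, 1 panel per gene with its own linear axis from 0, points for libraries, and mean ± SD beside them. The dotted line marks the level of 3 reads in the shallowest library, and the groups are apart for Lrp1 and Thbs4 only, with Lrp1 at 0.17 to 0.24 FPKM in control and 0.05 to 0.09 FPKM in knockout-labelled libraries.

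Cd47 (ENSMUSG00000055447, chr16:49800533-49915010, plus strand) encodes the integrin-associated receptor that binds thrombospondin 1 and SIRP alpha. Control libraries 1 to 3 held 141.9, 165.0 and 143.4 FPKM of it, against 127.1, 129.2 and 138.8 FPKM in knockout-labelled libraries 1 to 3. All knockout-labelled values lay below all control values, though knockout-labelled library 3 came close to control libraries 1 and 3. The mean was 150.1 ± 13.0 FPKM in control and 132 ± 6.25 FPKM in knockout-labelled libraries (SD, n = 3 each). The log2 change of -0.19 ± 0.08 (SE; 95% interval -0.36 to -0.01) had an unadjusted limma p of 0.0417 and did not pass after adjustment (adjusted p = 0.283). The exact permutation p was 0.1. This direction depended on the scaling: with each library rescaled to the same total (TPM), the change was 0.02 (adjusted p = 0.917). TPM moved the median of all tested genes from 0.01 to 0.19 (15277 genes tested), and relative to that median Cd47 stood at -0.17, beside -0.20 without rescaling. At 20455 to 24633 reads per library, depth did not limit the measurement.

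The genes with the profile most like that of Cd47 were Rsad1 (r = 0.99), Rps6ka5 (0.988), Ddx6 (0.984), Trim6 (0.979) and Rida (0.978), again over 6 libraries. None of these 5 was called.

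Sirpa (ENSMUSG00000037902, chr2:129592835-129632228, plus strand) encodes the inhibitory receptor through which myeloid cells sense CD47, and signals through the phosphatases encoded by Ptpn6 and Ptpn11. Control libraries held 13.9, 13.2 and 11.9 FPKM, and knockout-labelled libraries 12.2, 9.38 and 10.8 FPKM. Knockout-labelled library 1 lay above control library 3, so the groups overlapped. The mean was 13.0 ± 1.01 FPKM in control and 10.8 ± 1.43 FPKM in knockout-labelled libraries, with a log2 change of -0.25 ± 0.11 (SE), an unadjusted limma p of 0.0489 and an adjusted p of 0.303. The exact permutation p was 0.2, and under TPM the change was -0.06, although relative to the median of all tested genes it was -0.26 under both scalings. Sirpa lies 11.47 Mb from Thbs1 on chromosome 2, where 21 of the 229 tested genes within 20 Mb of Thbs1 were called (9.17%), against 1.56% of all tested genes. Whether the position had a part in its value was not tested. The 5 most similar profiles were those of Clic3 (r = 0.986), Prdm16 (0.982), Ccdc78 (0.982), Trio (0.982) and Hs3st1 (0.978). Clic3 ran from 0.68 FPKM in knockout-labelled library 2, where Sirpa was lowest as well, to 2.93 FPKM in control library 1, where Sirpa was highest.

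**Figure D3:**
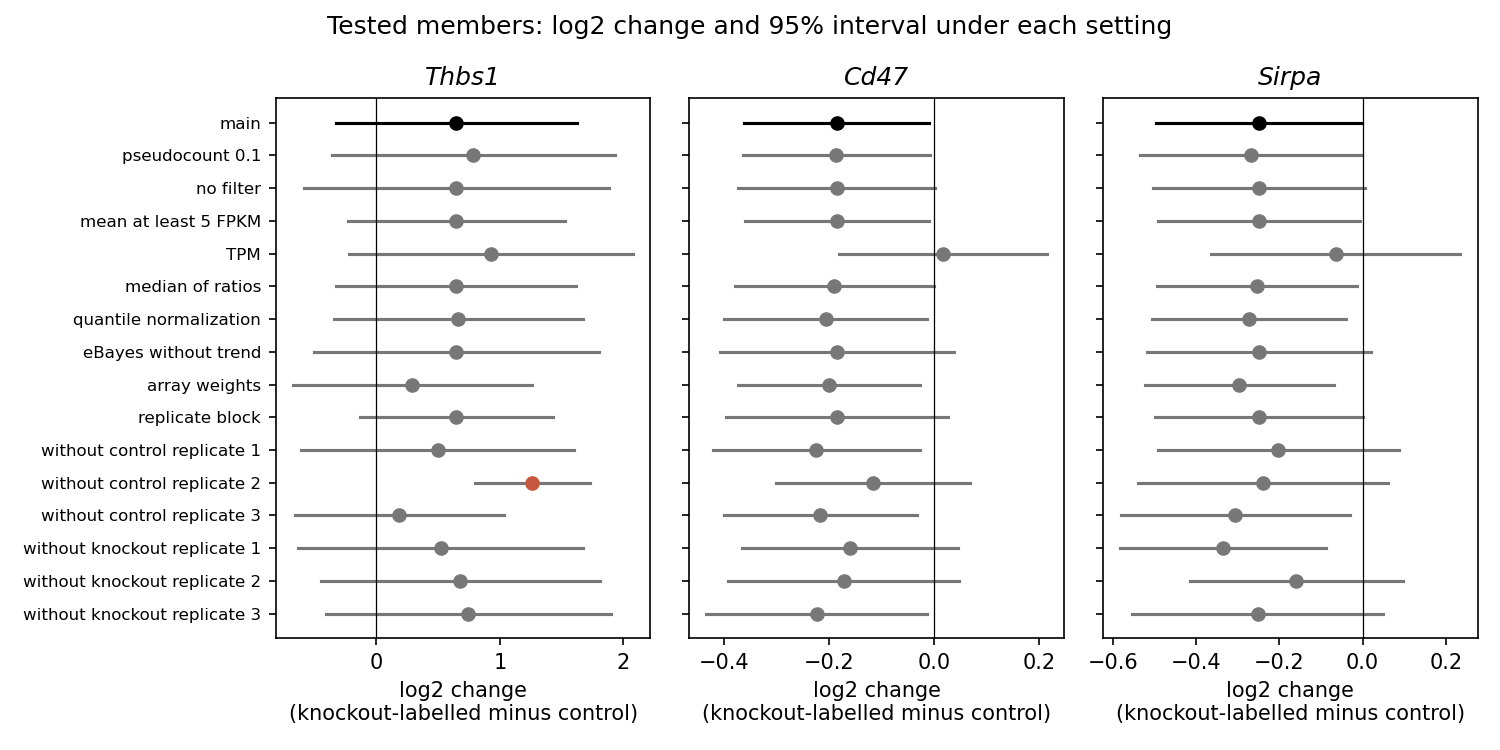
Log2 change (knockout-labelled minus control) of Thbs1, Cd47 and Sirpa with its 95% interval under each way of processing, the first line being the reported one and a red point marking an adjusted p below 0.05. Thbs1 is red without control library 2 alone (1.26), and the point of Cd47 crosses 0 under TPM alone (0.02).

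Cd36 and Lrp1 were both scarce. CD36 is the scavenger and fatty acid receptor that binds the type 1 repeats of thrombospondin 1. Cd36 (ENSMUSG00000002944, chr5:17781690-17888801) reached 0.7, 0.46 and 0.54 FPKM in control, against 0.46, 0.75 and 1.01 FPKM in knockout-labelled libraries, from 38 to 93 reads. The groups overlapped, with means of 0.567 ± 0.122 and 0.74 ± 0.275 FPKM (SD, n = 3 each; exact permutation p = 0.5).

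LRP1 is a large endocytic receptor that clears thrombospondins and, with calreticulin, passes on their signal. Lrp1 (ENSMUSG00000040249, chr10:127538161-127621148, minus strand) reached 0.24, 0.18 and 0.17 FPKM in control, against 0.09, 0.05 and 0.08 FPKM in knockout-labelled libraries. All knockout-labelled values lay below all control values. The means of 0.197 ± 0.0379 and 0.0733 ± 0.0208 FPKM differed by a factor of 2.68, from 252 reads in the control libraries together and 108 in those labelled knockout. The exact permutation p was 0.1, and with no filter on low values the limma adjusted p was 0.54. Lrp1 is strongly made by macrophages and stromal cells. Of 17 monocyte and macrophage markers, 10 stayed under 1 FPKM in every library, and the summed level was 370.3 to 411.2 FPKM in control and 347.7 to 375.4 FPKM in knockout-labelled libraries, nearly all of it Lyz2. Csf1r was at 0.04 to 0.33 FPKM. Cd68, a lysosomal marker of macrophages, was at 9.93, 13.2 and 11.95 FPKM in control and lower, at 6.0, 8.96 and 7.23 FPKM, in all knockout-labelled libraries (limma adjusted p = 0.0857). Of 16 stromal markers, 13 stayed under 1 FPKM and Adipoq and Lum were at 0, while the summed level was 12.9 to 14.2 FPKM in control and 9.44 to 11.2 FPKM in knockout-labelled libraries, mostly Runx2. The part of such cells in the level of Lrp1 was not tested.

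Ptprj (ENSMUSG00000025314, chr2:90429754-90580647), the gene of the receptor phosphatase CD148, reached 3.75, 5.23 and 3.34 FPKM in control, against 3.31, 4.12 and 4.23 FPKM in knockout-labelled libraries. The groups overlapped, with a log2 change of -0.05 ± 0.16 (SE; limma adjusted p = 0.915) whose sign flips under TPM (0.13). Relative to the median of all tested genes it was -0.07 without rescaling and -0.06 under TPM.

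Counted together, 3 of the 9 members entered the limma test and 0 were called, while 2 of them (Cd47 and Sirpa) had an unadjusted p below 0.05. Over all 12555 tested genes 1.56% were called, 0.566% with higher and 0.996% with lower knockout-labelled levels, and 16.4% had an unadjusted p below 0.05. The mean FPKM was lower in the libraries labelled knockout for 5 members and higher for 4, Cd47 changing sides under TPM. No overlap between groups was seen in 3 of the 9 (Cd47, Lrp1 and Thbs4), each time with the knockout-labelled values lower, and in 0 with them higher. Among the 35246 genes above 0 in any library, 6.56% were apart with lower and 5.33% with higher knockout-labelled values. Among tested genes, 10.1% were apart with lower values. The exact permutation p of these 3 members was 0.1 each, among 9 such tests.

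The wider pathway was followed through 11 gene lists. Together they hold 290 genes apart from the members, of which 163 were tested, 3 rose, 4 fell and 156 were not called. The median log2 change of the 163 was -0.05, against 0.01 for all tested genes. Of the 163, 41 had an unadjusted limma p below 0.05, beside 16.4% of all tested genes. The share called was 4.29%, beside the 1.56% of all tested genes. The lists were chosen with earlier results of these data known, so this share cannot show an excess. With no filter on low values, which raises the number of genes tested to 35246, 0 of these 7 genes were called, and without the intensity trend of the test 3 were (Ubqln2, Myc and Nfya). Under TPM the median of the same 163 genes was 0.15, and 0.21 over the same 12555 genes, so list medians near 0 have a sign that depends on the scaling, and 19 of the 163 were then called higher and 3 lower.

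Other receptors and partners of thrombospondins, mostly integrins and syndecans, gave 0 called of 21 tested genes, Ptprj included, with 4 at an unadjusted limma p below 0.05 and a median log2 change of -0.07. Itgb3, the beta subunit of the vitronectin receptor and the platelet fibrinogen receptor, stood at 13.7 ± 1.81 FPKM in control and 21.8 ± 5.22 FPKM in knockout-labelled libraries (adjusted p = 0.0934). Its knockout-labelled values of 27.9, 19.0 and 18.6 FPKM all lay above the highest control value of 14.8 FPKM. Itga6, a laminin receptor subunit, stood at 22.7 ± 2.65 and 17.0 ± 2.10 FPKM (adjusted p = 0.12). Calr, the gene of calreticulin, which passes the thrombospondin signal to LRP1, stood at 397 ± 16.0 and 326 ± 18.4 FPKM (adjusted p = 0.102). Kdr, the VEGF receptor that associates with CD47, was low at 0.817 ± 0.204 and 1.42 ± 0.268 FPKM (adjusted p = 0.301).

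Downstream of CD47, 1 of 16 tested genes fell and 0 rose, with 4 at an unadjusted limma p below 0.05 and a median of 0.01. Among all tested genes, 1.56% were called and 16.4% had such a p. Ubqln2, which encodes a ubiquilin of the family found to link CD47 to G proteins, fell from 17.1 ± 0.252 to 10.6 ± 0.740 FPKM (adjusted p = 0.00699, log2 change -0.64 ± 0.08 SE). Its control values were 17.0, 16.8 and 17.3 FPKM and its knockout-labelled values 10.5, 9.88 and 11.4 FPKM, and it was called in all 6 fits that left out a library. Ubqln1, its paralogue, stood at 46.7 ± 4.98 and 53.7 ± 2.99 FPKM (adjusted p = 0.305), and Vasp, an actin regulator phosphorylated by cyclic nucleotide kinases, at 95.4 ± 2.59 and 83.8 ± 3.50 FPKM (adjusted p = 0.195).

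For SIRP signalling, 16 of 18 symbols were found and 0 of 10 tested genes were called by limma, with 1 at an unadjusted p below 0.05 and a median of -0.15. That gene was Tyrobp, the adaptor of activating SIRP receptors, at 9.05 ± 1.05 and 7.14 ± 1.34 FPKM (adjusted p = 0.304). Jak2, Myh9 and Fyb were the next, with adjusted p of 0.356, 0.363 and 0.367. The phosphatase genes Ptpn6 (98.1 and 104 FPKM) and Ptpn11 (9.72 and 10.3 FPKM) had adjusted p of 0.615 and 0.761. This pair was picked with its values known.

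Among signals that promote or block engulfment, the process that CD47 restrains, 2 of 14 tested genes fell and 0 rose (median -0.15). Of the 14, 4 had an unadjusted limma p below 0.05. Over all tested genes, 1.56% were called and 16.4% had such a p. Cd24a, another surface signal against phagocytosis, fell from 127 ± 9.65 to 97.1 ± 0.351 FPKM (adjusted p = 0.0382, log2 change -0.38 ± 0.07 SE). Pdia3, a chaperone of calreticulin's compartment that travels with it to the surface of dying cells, fell from 289.9 ± 6.45 to 229 ± 9.95 FPKM (adjusted p = 0.0401), and also lies within 20 Mb of Thbs1. Both calls were lost under TPM, median of ratios, no filter, no intensity trend and the replicate block. Cd24a was called in 1 of the 6 fits that left out a library (adjusted p up to 0.14) and Pdia3 in 0 (up to 0.184). With Calr, Pecam1 was next, at 10.6 ± 0.818 and 8.85 ± 0.890 FPKM (adjusted p = 0.301).

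Of CD36 partners, which include kinases, tetraspanins and fatty acid handling genes, 0 of 21 tested genes were called by limma, 2 had an unadjusted p below 0.05 and the median was -0.02. Acsl4, an acyl-CoA synthetase, stood at 7.91 and 5.82 FPKM (adjusted p = 0.138) and the fatty acid transporter gene Slc27a4 at 4.16 and 6.07 FPKM (adjusted p = 0.177). Of the LRP1 family, its ligands and adaptors, 0 of 24 were called, with 5 at an unadjusted p below 0.05 and a median of -0.11. Vldlr, a relative of LRP1 that also binds thrombospondin 1, stood at 3.65 ± 0.861 and 1.81 ± 0.297 FPKM (adjusted p = 0.0781), and its 3 knockout-labelled values (2.15, 1.64 and 1.63 FPKM) all lay below the lowest control value of 3.13 FPKM. Apoe, a ligand of these receptors, stood at 251 ± 52.1 and 324 ± 23.9 FPKM (adjusted p = 0.187).

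Most genes with thrombospondin type 1 repeats were barely detected: of 61, 54 stayed under 1 FPKM in every library and 6 were tested, with 0 called by limma, 3 at an unadjusted p below 0.05 and a median of -0.07. Adamtsl5 stood at 5.0 ± 0.462 and 7.28 ± 1.18 FPKM (adjusted p = 0.125), and Cfp, the gene of properdin, at 5.16 and 3.35 FPKM (adjusted p = 0.222). Matrix proteins and proteases that bind or cut thrombospondins were similarly scarce, with 6 of 24 tested and 0 called by limma, 3 of them at an unadjusted p below 0.05 and the median at -0.12. The gelatinase gene Mmp2 stood at 2.30 ± 0.482 and 4.20 ± 0.705 FPKM (adjusted p = 0.0889), and Mmp14, the membrane protease, at 3.75 ± 0.627 and 2.15 ± 0.694 FPKM (adjusted p = 0.152).

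The TGF-beta list holds the ligand that thrombospondin 1 can activate, its receptors, binding proteins and early targets. Of 19 tested genes 1 rose and 0 fell, 6 had an unadjusted limma p below 0.05, and the median was -0.07. Among all tested genes, 1.56% were called and 16.4% had such a p. Klf10, an early target of the pathway, rose from 67.1 ± 7.41 to 102 ± 5.13 FPKM (adjusted p = 0.0112, log2 change 0.61 ± 0.09 SE), and was called in 5 of the 6 fits that left out a library. Tgfb1 did not pass the test, at 57.5, 50.3 and 53.3 FPKM in control and 44.0, 43.6 and 41.6 FPKM in knockout-labelled libraries (adjusted p = 0.08).

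Thbs1 is itself an early response gene, and 2 of 18 tested immediate early genes rose while 0 fell (median 0.15, with 7 at an unadjusted limma p below 0.05). Among all tested genes, 1.56% were called and 16.4% had such a p. Myc, which is known to lower Thbs1 in tumour cells, rose from 249 ± 24.1 to 403 ± 18.3 FPKM (adjusted p = 0.00446, log2 change 0.70 ± 0.08 SE), and was called in all 6 fits with a library left out. Egr1, an early response factor described to act on the Thbs1 promoter, rose from 10.5 ± 1.24 to 16.7 ± 1.76 FPKM (adjusted p = 0.0286), and was called in 1 of those 6 fits (adjusted p up to 0.104). Next by unadjusted p were Fosl2, at 1.023 ± 0.340 and 2.093 ± 0.396 FPKM (adjusted p = 0.149), and Junb, at 16.85 ± 2.05 and 23.15 ± 4.55 FPKM (adjusted p = 0.163). All 7 early genes with an unadjusted limma p below 0.05 were higher in the libraries labelled knockout. Fos, the classic early gene, was at 1.18 ± 0.02 and 0.89 ± 0.209 FPKM (adjusted p = 0.597). It was picked with its values known. The list of Thbs1 regulators shares Myc and Egr1 with the early genes. In it, 2 of 16 tested genes rose and 1 fell (median 0.03, with 8 at an unadjusted limma p below 0.05), beside the same 1.56% and 16.4%. Both lists were chosen with earlier results of these data known, so their counts cannot show an excess. Nfya, a subunit of the factor that binds CCAAT, fell from 8.35 ± 0.401 to 5.29 ± 0.128 FPKM (adjusted p = 0.0251, log2 change -0.57 ± 0.10 SE), with 0 calls in the 6 fits that left out a library (adjusted p up to 0.0968). Sp1 stood at 12.3 ± 0.988 and 9.56 ± 0.645 FPKM (adjusted p = 0.129) and Yy1 at 12.7 ± 0.663 and 10.2 ± 0.426 FPKM (adjusted p = 0.138).

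**Figure D4:**
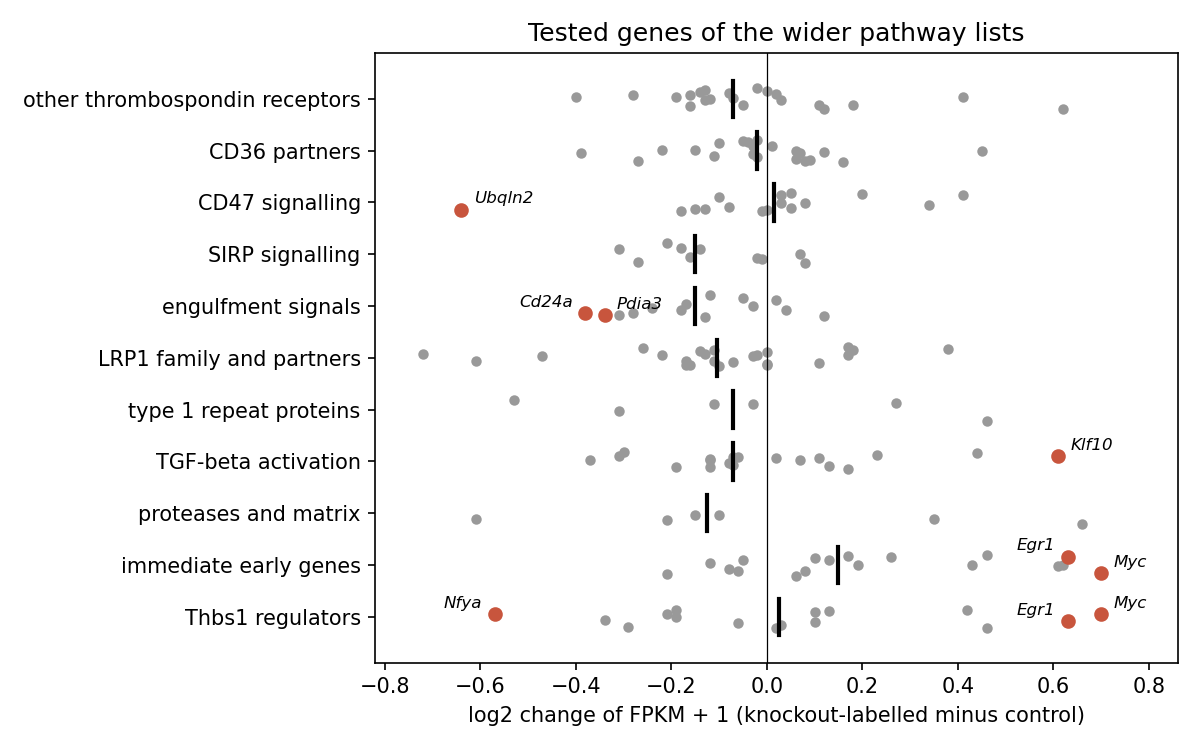
Log2 change of FPKM + 1 (knockout-labelled minus control) of every tested gene in the 11 pathway lists, without the members; red points are called genes, named beside the point, and the black bar is the median of each list. The medians lie between -0.15 and 0.15, and Ubqln2 (-0.64) and Myc (0.70) are the called genes farthest from 0.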

How the data were processed

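RNA of sorted stem cells was sequenced in 6 libraries, from 2 ng of total RNA each, with the SMART-Seq v4 kit, per the labels' protocols. FPKM values with 2 decimals for 52183 genes were deposited by the authors. STAR, edgeR, FastQC 0.11.5 and the builds GRCm38 and mm10 appear in the submitters' processing notes. How reads were counted, and on which annotation, is not given in the sources used here. All gene identifiers matched GENCODE M21 (GRCm38), the source of positions and exon lengths, and 82 genes carried no symbol.

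Depth was taken as the value that makes the FPKM of genes with at most 400 bases of exon whole reads within 0.1 read. Between 99.45% and 99.78% of such values were then whole. Read numbers per gene are rounded from FPKM. Replicates of a group differed by more than sampling noise (chi-square of 7.56 to 13.9 for each degree of freedom), so no library copied another.

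Tests used limma 3.58.1 in R 4.3.3 (lmFit, eBayes with an intensity trend, two-sided, group as the single term), with a pseudocount of 1, on 12555 genes, and were tested on simulated data first. Members under the filter were compared by exact permutation over 20 assignments. Means carry the SD of FPKM over 3 libraries. The members, the 11 pathway lists, the 9 marker lists and the tests were chosen with earlier results of these data known. Named are all members, every called gene of a list, up to 4 genes of each list by unadjusted p, and the 5 closest profiles without unnamed gene models. Some of the genes this rule selects are left to the counts. Alternatives were TPM, no filter, a filter at a mean of 5 FPKM, a pseudocount of 0.1, median of ratios, quantile normalization, no trend, array weights, a replicate block and each library left out. No filter with a pseudocount of 0.1 was added after seeing the data. Promoter windows came from RefSeq (GRCm38.p6). Protein sequences were not used here.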

Additional observations from a re-analysis of the deposited data

How the results depend on the processing

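Of the members, 0 were called in all settings that kept the 6 libraries, and between 0 and 1 when a library was left out, the 1 being Thbs1 without control library 2. The log2 change of Thbs1 lay between 0.19 and 1.26 in those fits (adjusted p = 0.0343 at the upper end, 0.542 or more in the others). Cd47 turned from lower to higher under TPM (log2 change 0.02, mean difference 3.51 TPM). Ptprj turned under TPM (0.13), without control library 2 (0.10) and without knockout-labelled library 1 (0.04), with a range of -0.16 to 0.10 over the fits that left out a library.

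Over all genes, 71 were higher and 125 lower. No filter gave 8 and 16, no filter with a pseudocount of 0.1 gave 14 and 35, no intensity trend 24 and 65, and the replicate block 27 and 54. A mean of at least 5 FPKM and array weights gave 112 higher each, and TPM 2016 higher, so that 94.0% of calls were higher in place of 36.2%. Leaving out a library gave 16 to 38 higher and 43 to 77 lower. Of the pathway genes, 7 were called as reported, 0 with no filter, 2 with no filter and a pseudocount of 0.1, 3 without the trend, 3 with the replicate block, 22 under TPM and 2 to 5 without a library. The causes were not tested.

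Libraries with the same number did not deviate together (r between -0.11 and 0.037 across genes for pairs 1 to 3), so the numbers were not treated as pairs. Values below about 0.05 FPKM rest on a few reads, and no count model was run.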
